A study of Homo sapiens with 28 samples.

Results

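The genes described here are 10 regulators of the BCL2 family: BCL2L1, MCL1, BCL2L2, BAX, BAK1, BID, BAD, BBC3, PMAIP1 and BCL2L11. They were taken from the deposited table of gene counts by their symbols, and each symbol matched 1 of its 58278 rows. The libraries came from HCT116, a human colorectal carcinoma line carrying luciferase and GFP, grown as subcutaneous xenografts in male NOD SCID mice, which lack functional T and B cells. Mice received daily gavage with vehicle (Control, 3 tumors), Palbociclib, an inhibitor of the cell cycle kinases CDK4 and CDK6 (5 tumors), Telaglenestat, an inhibitor of glutaminase, spelled as in the labels (4 tumors), or both drugs (Combination, 4 tumors). A further 12 libraries came from cultures started from residual tumors of the same treatments, 3 for each, and grown without drug. All groups thus share the same cell line and host strain, the labels do not record which tumor gave which culture, and results in 1 line and an immunodeficient host bear on that model.

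BCL2 family proteins decide whether the outer mitochondrial membrane stays intact. The effectors BAX and BAK1 form pores in it, which release cytochrome c and start caspase activation. The guardians, among them BCL-XL (the product of BCL2L1), MCL1 and BCL-w (BCL2L2), hold the effectors in check, and the BH3-only proteins relieve that check: BID and BIM (BCL2L11) can activate the effectors directly, BAD binds BCL-XL and BCL-w, NOXA (PMAIP1) binds mainly MCL1, and PUMA (BBC3) binds all the guardians. Colorectal carcinomas rely in many settings on BCL-XL and MCL1. All values below are messenger RNA, so protein amounts, cleavage of BID and phosphorylation of BAD were not measured.

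Tumor libraries held 6273834 to 10617936 counts and culture libraries 7198540 to 13815675. Levels are given as CPM (reads counted for a gene, scaled to a common library size), and a gene was called where the adjusted p of edgeR's quasi-likelihood test was under 0.05. The libraries differed in how counts depended on GC content. Slopes, in log2 units per SD of GC, are those of each gene's deviation from its mean over the tumors, or over the cultures. They are thus relative, and slopes of tumors and of cultures do not share a scale. The slope was 0.249 to 0.261 in the Control tumors and 0.0959 to 0.366 in the Palbociclib tumors. It was -0.391 to -0.305 in the Telaglenestat tumors and -0.288 to -0.161 in the Combination tumors. Most differences are therefore also given after each library's own trends of counts with GC content and length had been taken out. They are then named corrected. Levels, marker sums, ratios and other values not given as corrected are uncorrected. Whether these trends arose in the tumors or in library preparation was not tested. The lowest slope of a Palbociclib tumor was that of replicate 2, and among the Telaglenestat cultures replicate 2 stood apart at 0.426 against at most -0.0181, and the main values that rest on them are also given without them. Slopes were -0.136 to -0.104 in Palbociclib and -0.133 to -0.0651 in Combination cultures. Control cultures had 0.149, -0.0723 and 0.180 (replicates 1, 2 and 3), so comparisons of cultures with Control also span unequal slopes. The tumors carried epithelial transcripts: of 10 colorectal epithelium markers, among them EPCAM and KRT8, 7 had a median of 1 CPM or more in Control tumors and CEACAM5 was at 0. Their summed level was 2819 to 3366 CPM in Control, 3100 to 4328 in Palbociclib, 1512 to 1732 in Telaglenestat and 2290 to 2526 in Combination tumors. The markers did not move together. From Control to Telaglenestat tumors, medians went from 1262 to 461 CPM for KRT8, 854 to 354 for KRT18 and 466 to 111 for KRT19. EPCAM went from 419 to 485 and CDH1 from 173 to 170 CPM, and in Combination tumors they were at 533 and 204. A fibroblast list of 9 genes summed to 176 to 216 CPM in Control, 127 to 215 in Palbociclib, 55.1 to 66.1 in Telaglenestat and 106 to 155 in Combination tumors and to 3.72 to 12.2 CPM in the cultures, with DCN and LUM at 0 in all Control tumors. Endothelial markers summed to at most 4.42 CPM in any library, and macrophage and leukocyte markers to 15.9 to 21.2 in Control, 23.8 to 33.7 in Palbociclib, 3.04 to 10.3 in Telaglenestat and 9.85 to 16.6 CPM in Combination tumors. The host cells of these xenografts are mouse cells and the counts are of human genes, so these sums do not measure host cell content. Whether mouse reads entered them, or the members' counts, was not tested. The part of these marker shifts in the results below was not tested either.

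In Control tumors MCL1 and BCL2L1 were the most abundant members per length. On the scale of CPM per kilobase of exonic length, MCL1 had a level of 58.4 and BCL2L1 of 56.3, with overlapping ranges. PMAIP1 followed at 41.0 and BCL2L2 at 16.2, BAK1 at 10.8 and BAX at 8.55, and BID at 6.75 and BCL2L11 at 6.72. BAD at 2.81 and BBC3 at 1.57 were the lowest. In that order, the ranges of MCL1 and BCL2L1, of BAK1 and BAX, and of BID and BCL2L11 overlapped, and all other neighbours were apart. The order differed by treatment: BCL2L1 had the highest mean in Palbociclib tumors (69.7 CPM per kilobase), where its range overlapped that of PMAIP1 at 60.7, and PMAIP1's that of MCL1 at 59.5. MCL1 was highest in Telaglenestat tumors at 77.2, apart from PMAIP1 at 49.4 and BCL2L1 at 32.7. In Combination tumors MCL1 at 74.6 and PMAIP1 at 73.6 overlapped, and both stood above BCL2L1 at 47.0. These levels are uncorrected, and MCL1 and BCL2L1 differ in GC content (45.7% and 56.2%). The correction compares libraries for the same gene and does not make levels of different genes comparable. After it, mean log2 CPM of BCL2L1, not scaled by length, was 7.20 in Control and 7.15 in Telaglenestat tumors. That of MCL1 was 8.09 in Control and 8.26 in Telaglenestat tumors. Control cultures had the same genes at the top, with BCL2L1 at 58.2, MCL1 at 56.8 and PMAIP1 at 47.0, on a scale of their own. With all 28 libraries on 1 scale, BCL2L1 was at 52.7 in Control tumors and 60.4 in Control cultures. MCL1 was then at 54.7 and 58.9, and PMAIP1 at 38.4 and 48.8.

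**Figure D1:**
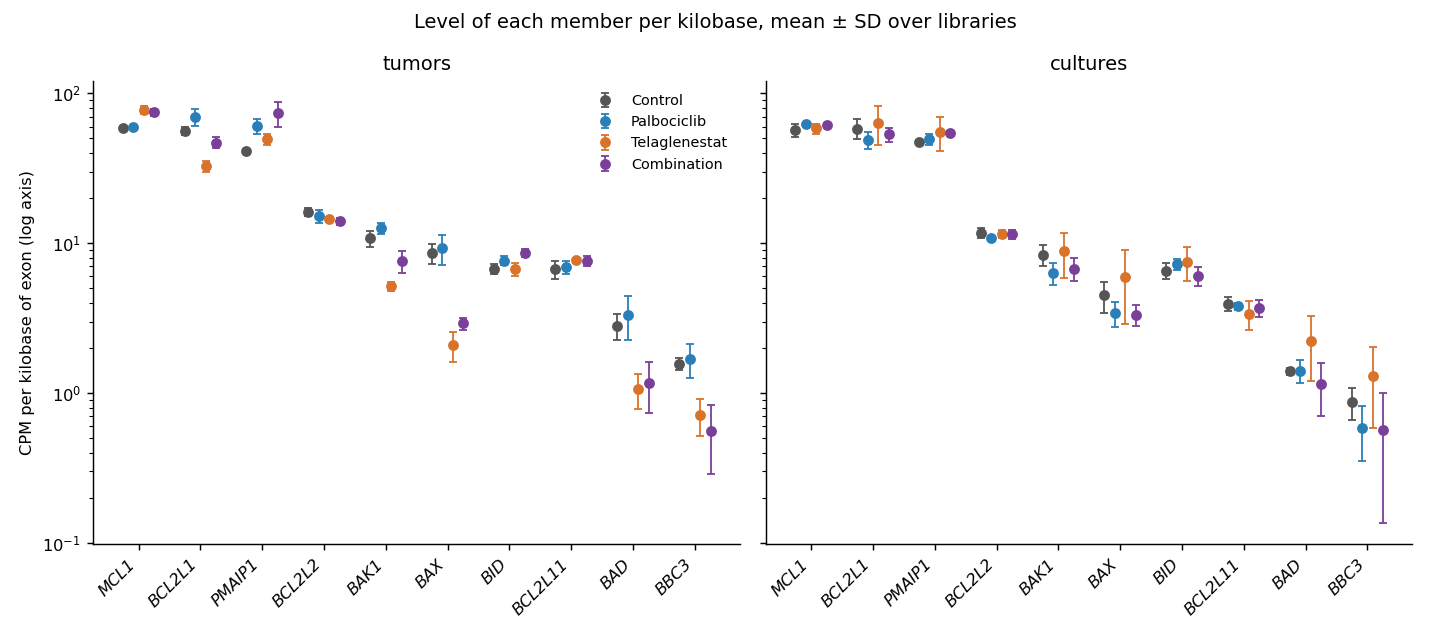
Mean level ± SD of each member in CPM per kilobase of exonic length (log axis), by treatment, in tumors and cultures. MCL1, BCL2L1 and PMAIP1 lie at the top in all 8 groups, and BBC3 has the lowest mean in each. Levels are not corrected for GC content.

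Without correction, BCL2L1, BAX, BAK1, BAD and BBC3 were called lower and MCL1 higher in Telaglenestat and in Combination tumors than in Control tumors. In Combination tumors BID and PMAIP1 were called higher as well, and in Palbociclib tumors PMAIP1 was the only call. With Palbociclib, 1 of 10 members was called, against 6.16% of the 14848 genes tested. With Telaglenestat 6 were called, 1 higher and 5 lower, against a background of 51.1% (22.6% higher and 28.5% lower), and the median log2 difference was -0.47 over the members and 0.03 over all genes. With the Combination 8 were called, 3 higher and 5 lower, against 44.5% (17.6% and 26.9%), with medians of -0.23 and -0.04. The Telaglenestat share is thus near that of all genes. After correction, 2 of 10 were called with Palbociclib (background 7.85%), 2 with Telaglenestat (13.2%) and 5 with the Combination (26%), with member medians of 0.10, 0.10 and 0.23. These corrected calls were 2 higher and 0 lower with Palbociclib, 1 higher (BCL2L2) and 1 lower (BAX) with Telaglenestat, and 4 higher (BCL2L1, BCL2L2, BID and PMAIP1) and 1 lower (BAX) with the Combination. Of the 5 genes that were lower without correction, BAX alone remained lower by the test in both. These comparisons share the 3 Control tumors and are not independent of each other. In bulk RNA, fewer cells of a type and less RNA per cell cannot be told apart.

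**Figure D2:**
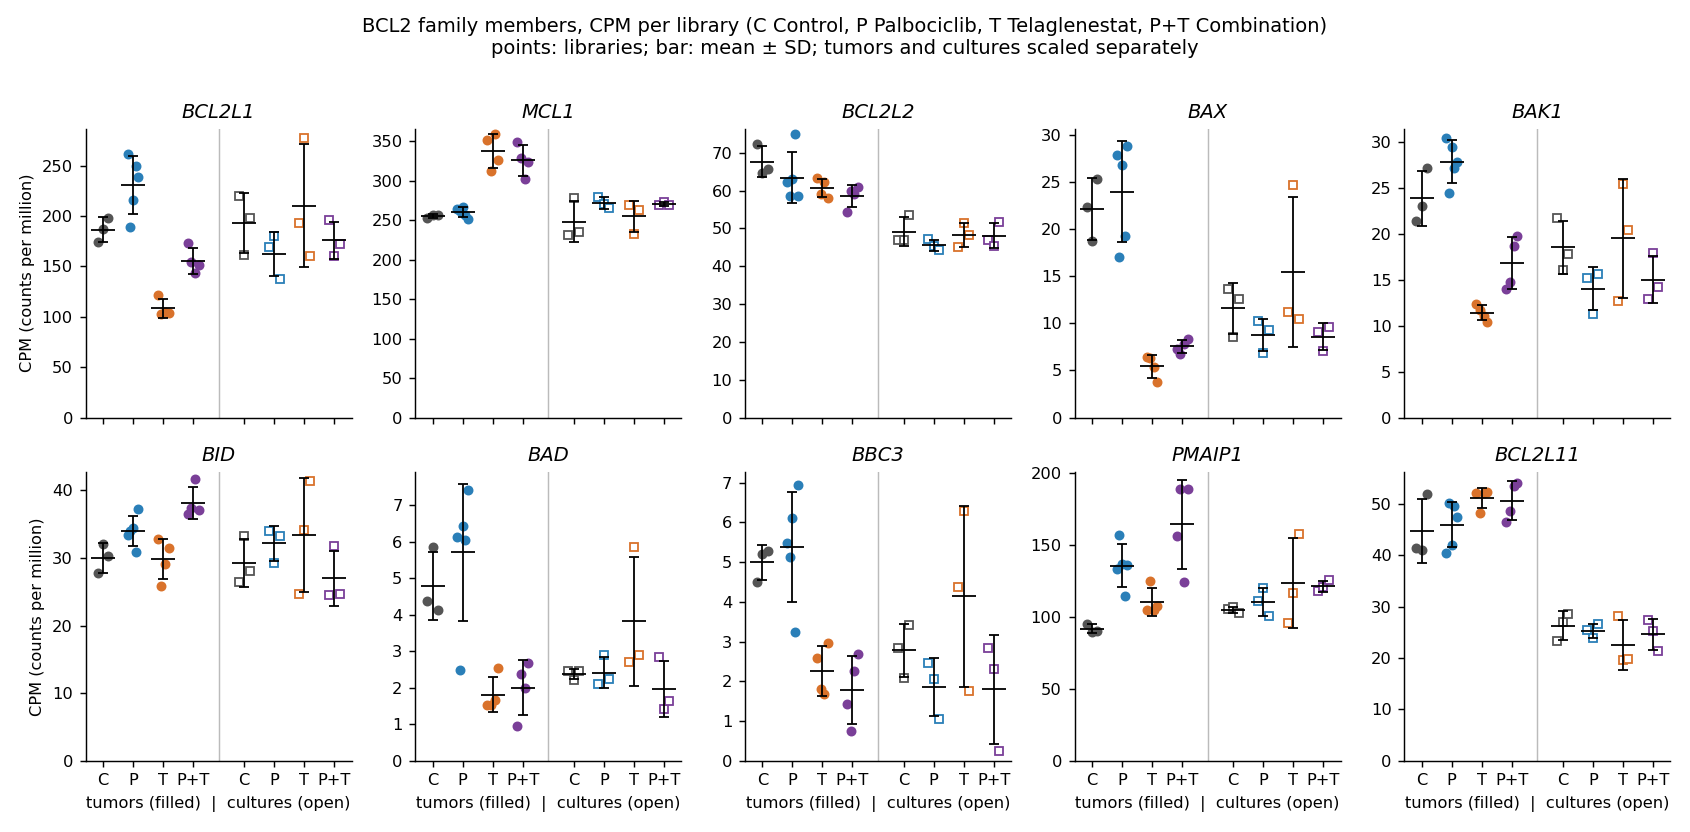
CPM of each member in every library by group, with bars at the group means ± SD; tumors are filled and cultures open. BAX sat at 3.72 to 8.33 CPM in the Telaglenestat and Combination tumors and at 17.1 to 28.9 in the Control and Palbociclib tumors.

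The Combination against Palbociclib alone gave 7 called members, 2 higher and 5 lower, against 47.6% of all genes (20.1% higher and 27.5% lower). Against Telaglenestat alone, 4 members were called, all higher, against 18.8% (8.93% higher and 9.89% lower). Corrected, these counts were 3 (background 14.4%; BID and BCL2L2 higher, BAX lower) and 3 (15.6%; BID, PMAIP1 and BCL2L1 higher). Without Palbociclib replicate 2, the Combination against Palbociclib again gave 7 and, corrected, 3 calls, with BAX at -1.76 (corrected -0.72) and PMAIP1 at 0.34 (corrected 0.05). A response to both drugs beyond the sum of the single responses on the log2 scale was not detected for any member by edgeR, whose lowest adjusted p was 0.588. Over all genes 10 passed (0.0673%), 1424 had an unadjusted p under 0.05, none of them a member, and DESeq2 called 95; corrected, no member passed either (0.0539%).

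**Figure D3:**
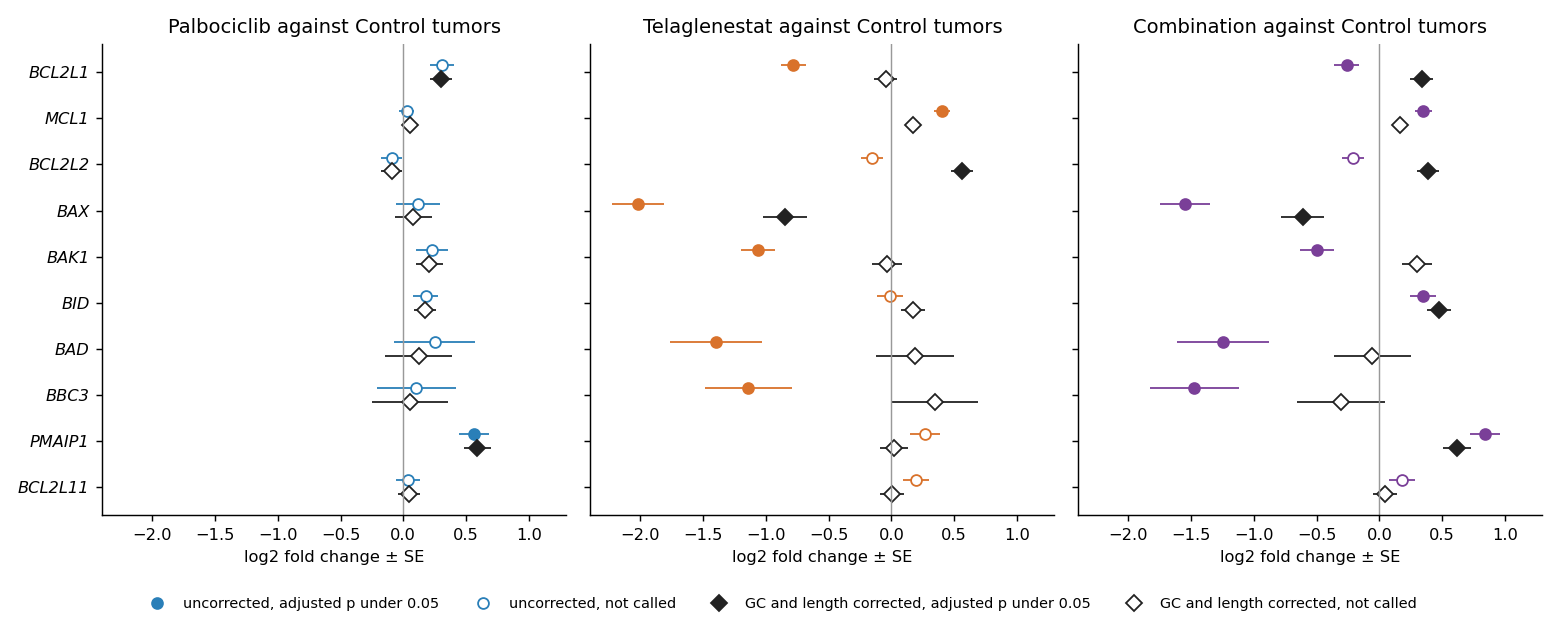
Log2 difference of each member from Control tumors ± SE in the 3 treated groups, uncorrected (circles) and corrected for GC content and length (diamonds); filled symbols passed the test. BAX was called with Telaglenestat and with the Combination and PMAIP1 with Palbociclib and with the Combination, both ways.

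BCL2L1 encodes BCL-XL, which binds BAX, BAK1 and most BH3-only proteins. Its level was 174, 187 and 199 CPM in Control tumors and 262, 189, 216, 249 and 239 in Palbociclib tumors. Telaglenestat tumors held 122, 103, 105 and 104 CPM, and Combination tumors 174, 155, 143 and 152. All Telaglenestat tumors lay below all Control tumors, and all Combination tumors below all Palbociclib tumors, while 4 of 5 Palbociclib tumors exceeded every Control tumor.

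BCL2L1 fell 1.72-fold with Telaglenestat, a log2 difference of -0.78 ± 0.10 (SE; adjusted p = 2.2e-06, edgeR). After correction that difference was -0.05 ± 0.09 (adjusted p = 0.828). With the Combination the uncorrected difference of -0.26 ± 0.10 (adjusted p = 0.037) and the corrected one of 0.34 ± 0.09 (adjusted p = 0.0112) had opposite signs, and both passed. The uncorrected call was lost in 5 of 16 fits that left out a single library, namely Control replicates 2 or 3 or Combination replicates 2, 3 or 4 (adjusted p 0.0652 to 0.144), and also with DESeq2 (0.108), its size factors in edgeR (0.113), no filter on low counts (0.0718) and one fit of all 28 libraries (0.402). The corrected call was lost without Control replicate 1 (adjusted p = 0.0603). The Palbociclib difference was 0.31 ± 0.09 (adjusted p = 0.0564) and, corrected, 0.30 ± 0.09 (adjusted p = 0.0394). Uncorrected it passed without Palbociclib replicate 2 (0.37, adjusted p = 0.00564) or Combination replicate 1 (adjusted p = 0.0442), and with DESeq2, its size factors, no filter or the strict filter (adjusted p = 0.0178, 0.0475, 0.00565 and 0.0309), and the corrected call was lost without Control replicates 1, 2 or 3 or Palbociclib replicates 1, 4 or 5 (adjusted p 0.0561 to 0.187). Beyond Telaglenestat alone, the Combination tumors were higher by 0.52 ± 0.09, and by 0.38 ± 0.09 after correction (adjusted p = 0.000584 and 0.00534). The gene lies at chr20:31664452-31723989 on the minus strand of GRCh38, as GENCODE release 29 places it. The antisense gene ABALON covers 43% of its exonic bases, with at most 93 counts in a library against 691 or more for BCL2L1, and whether counting used strand is not given in the sources used here.

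MCL1 encodes a short-lived guardian that holds BAK1 and is bound by NOXA. It lies at chr1:150574551-150579738 on the minus strand. The 3 Control tumors held 253, 257 and 256 CPM, and the Palbociclib tumors 265, 261, 267, 256 and 251. Telaglenestat tumors held 352, 313, 359 and 327 CPM and Combination tumors 349, 329, 302 and 324. Every tumor given Telaglenestat, alone or combined, exceeded every other tumor.

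MCL1 rose 1.32-fold with Telaglenestat (0.40 ± 0.07, adjusted p = 4.58e-05) and 1.28-fold with the Combination (0.35 ± 0.07, adjusted p = 0.000215). Corrected, these log2 differences were 0.17 ± 0.06 (adjusted p = 0.0752) and 0.16 ± 0.06 (adjusted p = 0.0552), which did not pass. The corrected Telaglenestat difference passed without Telaglenestat replicate 2 (0.20, adjusted p = 0.0418), and that of the Combination without Palbociclib replicate 2, Telaglenestat replicate 2 or Combination replicate 3 (adjusted p 0.0341 to 0.0484). Palbociclib gave 0.03 ± 0.06 (adjusted p = 0.898), with a Palbociclib range inside which the Control tumors fell.

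BCL2L2 encodes BCL-w, a guardian bound by BAD, BIM and PUMA. It lies at chr14:23298790-23311759 on the plus strand and shares 19.4% of its exonic bases with the readthrough gene BCL2L2-PABPN1, which had at most 12 counts. Levels were 72.4, 64.7 and 65.8 CPM in Control tumors, 62.2, 58.5, 63.1, 74.9 and 58.5 with Palbociclib, 63.2, 59.1, 62.3 and 58.2 with Telaglenestat, and 54.3, 60.02, 59.2 and 61.0 with the Combination. Each Telaglenestat and Combination tumor lay just below the lowest Control tumor, by an uncorrected difference of -0.16 ± 0.09 for Telaglenestat (adjusted p = 0.141) and -0.21 ± 0.09 for the Combination (adjusted p = 0.0625), which did not pass. That of the Combination passed without Palbociclib replicate 4 (adjusted p = 0.0308), with at least 10 counts asked of every library (0.0397) or with a replicate block (0.0483). Corrected, BCL2L2 was higher by 0.56 ± 0.09 with Telaglenestat (adjusted p = 0.000167) and by 0.38 ± 0.09 with the Combination (adjusted p = 0.00264). Its GC content is 56.2%, as is that of BCL2L1, and among genes of that GC content (median 56.3%) the median uncorrected Telaglenestat difference was -0.71, with quartiles of -1.05 and -0.38. BCL2L2 thus stayed near Control where genes of like GC content were lower.

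Between the guardians, the log2 ratio of BCL2L1 to BCL2L2, which have the same GC content, was 1.46 ± 0.17 (SD, n = 3) in Control, 1.86 ± 0.18 (n = 5) in Palbociclib, 0.83 ± 0.08 (n = 4) in Telaglenestat and 1.41 ± 0.18 (n = 4) in Combination tumors. Telaglenestat tumors, at 0.75 to 0.95, lay below every other tumor (1.27 to 2.07). In the cultures the group means were 1.82 to 2.09. This pair was chosen after its values had been seen, so the ratio carries no test.

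**Figure D4:**
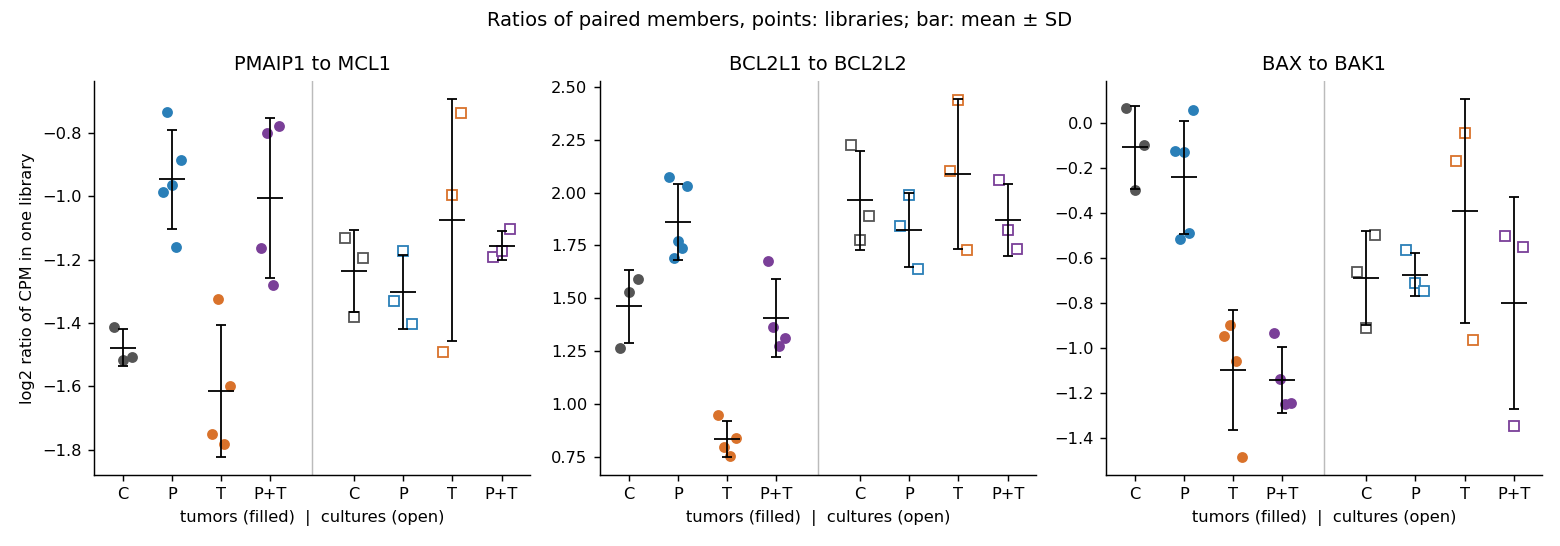
Log2 ratios of 3 pairs of members (PMAIP1 to MCL1, BCL2L1 to BCL2L2, BAX to BAK1) in every library by group, with group means ± SD; tumors are filled and cultures open. The ratio of PMAIP1 to MCL1 was -1.16 to -0.73 in Palbociclib tumors and -1.52 to -1.41 in Control tumors.

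BAX, a pore-forming effector, showed the largest fall of the 10 members. It lies at chr19:48954815-48961798 on the plus strand, with a GC content of 60.4%. Control tumors held 22.3, 18.7 and 25.3 CPM, and Palbociclib tumors 27.9, 17.1, 26.8, 19.3 and 28.9. Telaglenestat tumors held 6.38, 6.27, 5.31 and 3.72 CPM, and Combination tumors 7.31, 6.72, 7.81 and 8.33. These 8 tumors stood apart below the 8 others, with raw counts of 25 to 56 behind each value.

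BAX fell 4.06-fold with Telaglenestat (-2.02 ± 0.21, adjusted p = 1.51e-07) and 2.92-fold with the Combination (-1.55 ± 0.20, adjusted p = 3.5e-06). After correction the falls were 1.8-fold (-0.85 ± 0.18, adjusted p = 0.00227) and 1.53-fold (-0.61 ± 0.17, adjusted p = 0.0106). The corrected Combination call was lost without Control replicate 3 (-0.51, adjusted p = 0.0627), and the Telaglenestat call held in all 16 fits that left out a library, both ways. Against Palbociclib alone the Combination was lower by 1.67 on the log2 scale, and by 0.69 after correction (adjusted p = 4.38e-07 and 0.00365). Among genes with a median GC content of 59.4%, the median uncorrected Telaglenestat difference was -1.10, with a lower quartile of -1.48, so BAX lay below most genes of like GC content.

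The promoter of BAX is shown because the gene fell with and without correction. Its 250 bases before the RefSeq start, at chr19:48954625-48954874 on the plus strand of GRCh38.p14, hold 4 copies of CACGTG, the E-box that MYC, MAX and USF factors are known to bind, and 1 of GGGCGG, a box for SP1-like factors. Capitals mark these motifs on either strand:

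BAX: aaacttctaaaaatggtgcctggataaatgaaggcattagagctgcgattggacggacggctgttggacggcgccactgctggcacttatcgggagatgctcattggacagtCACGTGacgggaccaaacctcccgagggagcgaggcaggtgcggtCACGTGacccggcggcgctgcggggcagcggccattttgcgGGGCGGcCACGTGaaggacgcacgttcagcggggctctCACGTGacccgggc

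The copies of CACGTG begin 138, 93, 45 and 14 bases before the start. At least 4 copies stood in 5 of 35116 promoter windows of the same length (0.0142%), and any copy in 6.34%, while GGGCGG stood in 42.6%. The motifs were chosen after the sequences had been seen, and a match describes the letters only.

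BAK1, the other effector, lies at chr6:33572547-33580293 on the minus strand and has a GC content of 58.7%. Control tumors held 21.3, 23.02 and 27.1 CPM and Palbociclib tumors 30.4, 24.4, 29.4, 27.1 and 27.8. Telaglenestat tumors held 12.3, 11.7, 11.1 and 10.4 CPM, and Combination tumors 13.98, 14.8, 18.6 and 19.8. The Telaglenestat and Combination tumors did not overlap each other or the other tumors.

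BAK1 fell 2.09-fold with Telaglenestat (-1.06 ± 0.14, adjusted p = 3.29e-06) and 1.41-fold with the Combination (-0.50 ± 0.14, adjusted p = 0.00513), a call lost in one fit of all 28 libraries (adjusted p = 0.0774). Corrected, the log2 differences were -0.03 ± 0.12 (adjusted p = 0.912) and 0.30 ± 0.12 (adjusted p = 0.0631), the latter with the opposite sign, and a call without Control replicate 3 (0.40, adjusted p = 0.034) or Combination replicate 2 (0.36, adjusted p = 0.0379). Beyond Telaglenestat alone, the Combination tumors were higher by 0.56 ± 0.14 (adjusted p = 0.00613), and by 0.33 ± 0.12 corrected (adjusted p = 0.0598), which passed without Combination replicate 2 (0.39, adjusted p = 0.0385). The ratio of BAX to BAK1 on the log2 scale was -0.11 ± 0.18 (SD, n = 3) in Control and -0.24 ± 0.25 (n = 5) in Palbociclib tumors, against -1.10 ± 0.27 (n = 4) in Telaglenestat and -1.14 ± 0.15 (n = 4) in Combination tumors. The ranges of the groups with and without Telaglenestat did not overlap, and this pair too was chosen after its values had been seen.

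**Figure D5:**
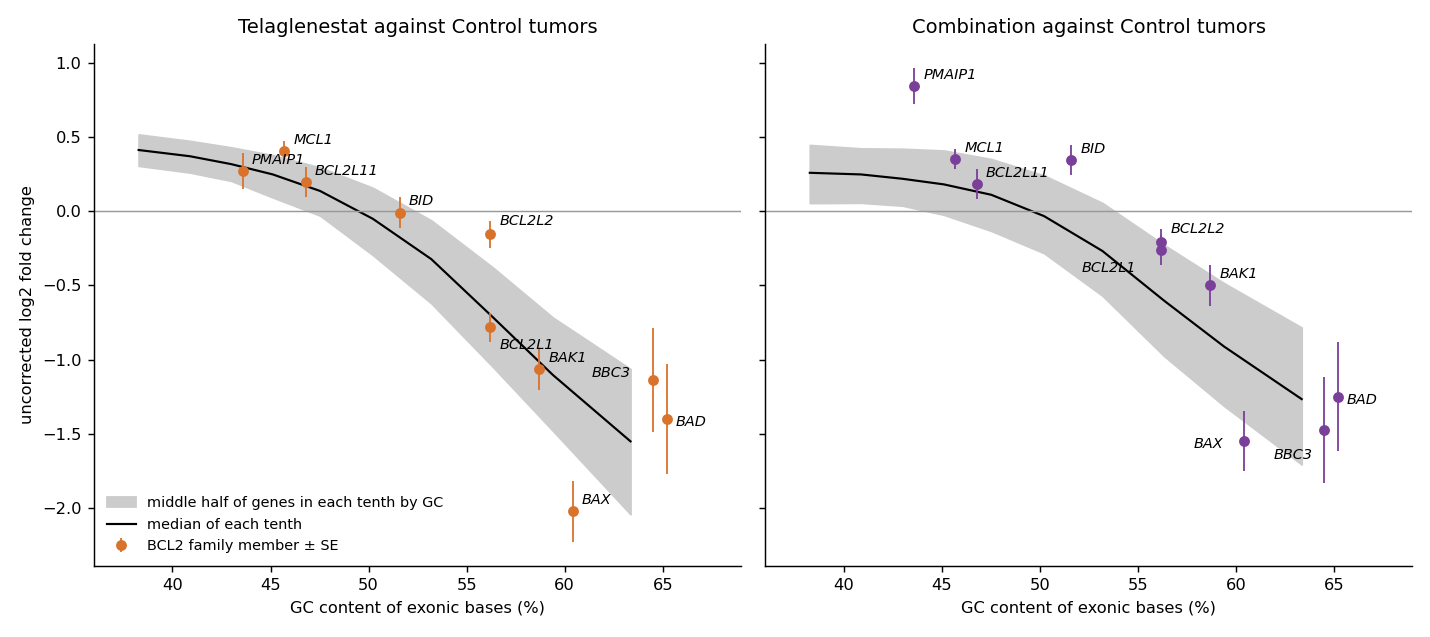
Log2 difference from Control tumors against GC content, uncorrected, for Telaglenestat and Combination: the line and band give the medians and quartiles of all genes in 10 bins of GC content, and the points the 10 members ± SE. The median of all genes with Telaglenestat runs from 0.41 in the lowest bin to -1.55 in the highest.

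Among the BH3-only activators, BID is a protein that caspase-8 cleaves to link death receptors to mitochondria. It lies at chr22:17734138-17774770 on the minus strand. Control tumors held 27.7, 32.1 and 30.2 CPM, Palbociclib tumors 33.4, 33.9, 34.5, 30.9 and 37.2, Telaglenestat tumors 32.8, 25.9, 29.2 and 31.4, and Combination tumors 36.5, 37.3, 41.6 and 37.0. The Combination tumors exceeded every Control and every Telaglenestat tumor.

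BID rose 1.27-fold with the Combination (0.35 ± 0.10, adjusted p = 0.00946), and by 0.47 ± 0.10 after correction (adjusted p = 0.00101). Without Control replicate 1 the uncorrected call was lost (0.29, adjusted p = 0.0577). The single drugs gave 0.18 ± 0.10 (Palbociclib, adjusted p = 0.366) and -0.01 ± 0.10 (Telaglenestat, adjusted p = 0.945). Beyond Telaglenestat alone, BID was higher by 0.36 ± 0.10 in the Combination (adjusted p = 0.0127, but 0.0549 without a filter and 0.0776 in one fit of all 28 libraries; corrected 0.30 ± 0.09, adjusted p = 0.0263, a call lost without Telaglenestat replicate 2 or Combination replicate 3, adjusted p = 0.0948 and 0.0800). Against Palbociclib alone the difference was 0.17 ± 0.09 (adjusted p = 0.129) and, corrected, 0.30 ± 0.08 (adjusted p = 0.0172), a call lost without Combination replicate 3 (0.27, adjusted p = 0.0651).

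BCL2L11 encodes BIM, which binds all guardians. It lies at chr2:111119378-111168447 on the plus strand, and 10.9% of its exonic bases lie opposite MIR4435-2HG, which had up to 298 counts. Levels were 41.4, 40.9 and 51.9 CPM in Control tumors, 40.5, 50.2, 42.1, 49.5 and 47.5 with Palbociclib, 52.1, 48.2, 52.1 and 52.2 with Telaglenestat and 46.4, 48.7, 53.4 and 54.2 with the Combination. All groups overlapped Control. No difference from Control passed, at 0.04 ± 0.10, 0.19 ± 0.10 and 0.18 ± 0.10 (adjusted p = 0.904, 0.121 and 0.164). Without Control replicate 3, at 51.9 CPM, those of Telaglenestat and the Combination were 0.31 and 0.30 and passed (adjusted p = 0.0257 and 0.0371), and that of Telaglenestat also passed in one fit of all 28 libraries (adjusted p = 0.0415). Corrected, no difference of BCL2L11 from Control passed. Corrected mean log2 CPM was 5.56 in Control, 5.61 in Palbociclib, 5.57 in Telaglenestat and 5.60 in Combination tumors.

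PMAIP1 encodes NOXA, a BH3-only protein whose gene the integrated stress response is known to induce. It lies at chr18:59899948-59904306 on the plus strand, with a GC content of 43.6%. Control tumors held 95.2, 89.8 and 90.2 CPM, and Palbociclib tumors 134, 157, 137, 115 and 136. Telaglenestat tumors held 105, 125, 104 and 108 CPM, and Combination tumors 156, 189, 124 and 189. All treated tumors exceeded all Control tumors.

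PMAIP1 rose 1.48-fold with Palbociclib (0.56 ± 0.12, adjusted p = 0.00463) and 1.79-fold with the Combination (0.84 ± 0.12, adjusted p = 1.46e-05). Corrected, the differences were 0.59 ± 0.11 (adjusted p = 0.00111) and 0.62 ± 0.11 (adjusted p = 0.00032). The Palbociclib call held in all 16 fits that left out a library, both ways, at 0.51 to 0.62 uncorrected; without replicate 2, whose slope stood apart, it was 0.51 (adjusted p = 0.00847). Telaglenestat alone gave 0.27 ± 0.12 (adjusted p = 0.0742), which passed without Combination replicate 3 (0.26, adjusted p = 0.0351), with DESeq2 (0.0264), its size factors (0.0367), no filter (0.0035), the compared groups only (0.0119) and one fit of all 28 libraries (0.0247). Corrected, it was 0.02 ± 0.11 (adjusted p = 0.934). Combined with Telaglenestat, Palbociclib added 0.57 ± 0.11 to Telaglenestat alone, or 0.60 ± 0.10 corrected (adjusted p = 0.00118 and 0.000335). Against Palbociclib alone the Combination was higher by 0.28 ± 0.10 (adjusted p = 0.0335), a call lost without Palbociclib replicates 1, 4 or 5 or Combination replicates 2 or 4 (0.20 to 0.28, adjusted p 0.0536 to 0.140) or with the compared groups only (0.0519), and by 0.03 ± 0.09 corrected (adjusted p = 0.885). The ratio of PMAIP1 to MCL1 was -1.48 ± 0.06 (SD, n = 3) in Control, -0.95 ± 0.16 (n = 5) in Palbociclib, -1.61 ± 0.21 (n = 4) in Telaglenestat and -1.01 ± 0.25 (n = 4) in Combination tumors on the log2 scale, a description chosen after its values had been seen.

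The promoters of PMAIP1, which rose with Palbociclib both ways, and of BCL2L1, whose call depends on the correction, are set side by side. Capitals mark GGGCGG and TGACGT, the core of sites for CREB and ATF factors, on either strand:

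PMAIP1, chr18:59899746-59899995 on the plus strand: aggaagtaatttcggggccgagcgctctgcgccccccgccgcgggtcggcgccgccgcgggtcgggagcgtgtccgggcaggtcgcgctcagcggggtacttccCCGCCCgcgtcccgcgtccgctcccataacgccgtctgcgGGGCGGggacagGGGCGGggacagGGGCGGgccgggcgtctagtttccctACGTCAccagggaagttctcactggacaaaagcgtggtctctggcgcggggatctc

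BCL2L1, the upstream of its 2 windows, chr20:31723964-31724213 on the minus strand: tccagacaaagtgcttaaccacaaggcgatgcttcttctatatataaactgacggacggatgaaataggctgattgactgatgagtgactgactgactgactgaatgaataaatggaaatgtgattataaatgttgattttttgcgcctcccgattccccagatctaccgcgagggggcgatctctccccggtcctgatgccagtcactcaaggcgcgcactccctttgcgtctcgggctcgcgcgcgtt

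The PMAIP1 window holds 4 copies of GGGCGG and 1 of TGACGT, which stood in 7.1% of all windows, within 72.8% GC. That of BCL2L1 holds neither, and 2 copies of TATAAA, found in 10.7% of windows, within 50% GC. The other BCL2L1 window holds none of these motifs, within 60.4% GC. Among the other members, both BAD windows hold GGGCGG and TGACGT, and windows of BID hold up to 4 copies of GGGCGG. The BCL2L11 window holds 3 copies of GGGCGG and that of BAK1 2. CACGTG, shown above for BAX, also stands as 1 copy in the BBC3 window and in some windows of BID.

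BAD, a BH3-only protein held inactive by phosphorylation, and BBC3, which encodes PUMA, were the members with the fewest counts, 6 to 68 and 2 to 73 in a library. BAD lies at chr11:64269830-64284704 on the minus strand, opposite GPR137 for 23.7% of its exonic bases, and BBC3 at chr19:47220822-47232766 on the minus strand. BAD had levels of 4.38, 5.87 and 4.13 CPM in Control, 6.14, 2.50, 6.44, 6.05 and 7.41 in Palbociclib, 1.52, 1.53, 1.67 and 2.53 in Telaglenestat and 0.953, 2.39, 1.99 and 2.68 in Combination tumors. For BBC3 the values were 4.49, 5.20 and 5.29 in Control, 5.48, 5.13, 6.12, 3.25 and 6.94 in Palbociclib, 2.58, 1.81, 1.67 and 2.98 in Telaglenestat and 1.43, 0.746, 2.27 and 2.68 in Combination tumors. Both genes were lower in every tumor given Telaglenestat than in any Control tumor.

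BAD fell by 1.40 on the log2 scale with Telaglenestat (SE 0.37, adjusted p = 0.00369) and by 1.25 with the Combination (SE 0.37, adjusted p = 0.0088). BBC3 fell by 1.14 (SE 0.35, adjusted p = 0.0102; 0.0692 in one fit of all 28 libraries) and by 1.47 (SE 0.36, adjusted p = 0.00224). They have GC contents of 65.2% and 64.5%, above all other members, and genes with a median of 63.4% had a median Telaglenestat difference of -1.55. Corrected, no difference of either gene passed: BAD gave 0.19 ± 0.31 with Telaglenestat and -0.06 ± 0.31 with the Combination, and BBC3 gave 0.35 ± 0.34 and -0.30 ± 0.35 (adjusted p = 0.771, 0.917, 0.59 and 0.575).

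In the drug-free cultures no member was called in any comparison, uncorrected or corrected. The lowest adjusted p of a member was 0.795 for Palbociclib, 0.808 for Telaglenestat and 0.705 for the Combination against Control, and 0.317 for the Combination against Telaglenestat. Over all 13985 genes edgeR called 0, 0 and 1 against Control (0%, 0% and 0.00715%) and 0 and 0 for the Combination against Palbociclib and Telaglenestat (0% each). An unadjusted p under 0.05 was reached by 592, 898, 895, 277 and 1969 genes in these 5 comparisons, with 0, 0, 0, 0 and 2 members among them, and DESeq2 called 0, 13, 3, 3 and 139 genes and no member. A p that misses the threshold with 3 cultures a group does not show that the groups were alike.

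BAX held 13.7, 8.50 and 12.6 CPM in Control cultures, 10.2, 6.89 and 9.29 in Palbociclib, 11.2, 24.7 and 10.4 in Telaglenestat and 9.12, 7.01 and 9.65 in Combination cultures. The value of 24.7 was that of Telaglenestat replicate 2, which stood apart in its slope, and without it the Telaglenestat difference was -0.09 instead of 0.42. PMAIP1 held 106, 107 and 103 CPM in Control and 111, 120 and 100 in Palbociclib cultures, with 96.0, 117 and 158 in Telaglenestat and 118, 121 and 125 in Combination cultures. The Combination cultures lay above the Control cultures in PMAIP1, without a call. BCL2L1 ranged over 138 to 278 and MCL1 over 231 to 280 CPM in the 12 cultures, and every treated group overlapped Control in both.

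Between Control tumors and Control cultures, BCL2L11, BAX and BCL2L2 were higher in tumors: 3 of 10 members, against 45.9% of 15466 genes. BCL2L11 was 1.53-fold higher (0.62 ± 0.13, adjusted p = 0.000437), and 0.73 ± 0.12 after correction (adjusted p = 1.07e-05). BAX at 0.78 ± 0.27 (adjusted p = 0.0187) and BCL2L2 at 0.31 ± 0.10 (adjusted p = 0.00857) gave 0.08 and -0.13 corrected and did not pass. The BAX call was lost without culture replicate 2 (adjusted p = 0.118) or tumor replicate 3 (0.0745), and that of BCL2L2 without tumor replicate 1 (0.0517). Corrected, 3 members passed (40.5%): BCL2L11, and BCL2L1 and BAK1, which were lower in tumors by 0.63 (adjusted p = 3.51e-05) and 0.42 (adjusted p = 0.0384) on the log2 scale. Control tumors and cultures also differ in host cells and growth conditions, which cannot be told apart here.

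The difference between a treated group and Control was itself compared between the tumors and the cultures, in which it is what was left in drug-free growth after treatment of the source tumor. For Telaglenestat, 6 of 10 members had unequal differences, against 34.1% of genes: BAX by -2.36 ± 0.38 (adjusted p = 0.000133), BAD by -2.002 ± 0.54 (0.00559), BAK1 by -1.05 ± 0.27 (0.00392), BCL2L1 by -0.82 ± 0.21 (0.00412), BCL2L11 by 0.52 ± 0.18 (0.0297) and MCL1 by 0.46 ± 0.11 (0.00349). That of BCL2L11 was lost without Control culture replicates 2 or 3, Telaglenestat culture replicates 2 or 3 or Control tumor replicates 1 or 2 (adjusted p 0.0682 to 0.108), and with a replicate block (0.0510), and BBC3 passed without Telaglenestat culture replicate 3 (-1.99, adjusted p = 0.0187) and with DESeq2 (0.0446). Without Telaglenestat culture replicate 2, whose slope stood apart, 5 of 10 passed, with BAX at -1.83, BAD at -1.54, BAK1 at -0.80, BCL2L1 at -0.56 and MCL1 at 0.40 (adjusted p 0.000502 to 0.0423). Corrected, BAX at -1.04 ± 0.25 (adjusted p = 0.019) and BCL2L2 at 0.65 ± 0.15 (adjusted p = 0.0134) differed, against 3.8% of genes, in fits with all libraries. For Palbociclib no member passed (background 1.39%, lowest adjusted p 0.201, 215 genes in all by edgeR, 2159 with an unadjusted p under 0.05 and 466 by DESeq2), nor after correction (1.03%). For the Combination PMAIP1 differed by 0.73 ± 0.20 (adjusted p = 0.0411, background 2.91%), a call lost without any 1 library of these groups except Combination tumor replicate 3 (12 of 13 fits, adjusted p 0.0598 to 0.113) and after correction (0.53, adjusted p = 0.0969, 2.64%).

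The remaining genes of the pathway were counted by lists, with the background as above and the Control tumors again shared. The median log2 differences of all genes were 0.00067 with Palbociclib, 0.03 with Telaglenestat and -0.04 with the Combination, and each list's medians are given in that order. Of 10 other BCL2 family genes tested, 1 was higher with Palbociclib, 1 higher and 3 lower with Telaglenestat, and 3 higher and 2 lower with the Combination (medians 0.13, -0.19 and -0.083). Corrected, 1 was higher with Palbociclib, 1 lower with Telaglenestat, and 2 higher and 1 lower with the Combination. BIK, a BH3-only protein of the endoplasmic reticulum, was that gene with Palbociclib, at 0.69 (adjusted p = 0.000116; corrected 0.63, adjusted p = 3.54e-05), and rose with the Combination at 0.38 (adjusted p = 0.00474; corrected 0.90, adjusted p = 4.44e-07). With Telaglenestat it was lower by 0.73 (adjusted p = 1.06e-05), but at 0.07 corrected (adjusted p = 0.688). BOK, another effector-like protein, was at -1.62 with Telaglenestat (adjusted p = 5.04e-06) and -0.03 corrected (adjusted p = 0.955).

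Of 6 inhibitors of apoptosis tested, 1 was lower with Palbociclib, and 3 were higher and 1 lower with Telaglenestat, against 2 and 1 with the Combination (medians 0.043, 0.29 and 0.18). Corrected, 1 was lower with Palbociclib, 0 passed with Telaglenestat, and 1 was higher and 1 lower with the Combination. BIRC5, which encodes survivin and peaks in mitosis, was lower by 1.00 with Palbociclib and by 1.21 with the Combination on the log2 scale (adjusted p = 0.000114 and 2.28e-06; corrected by 1.00 and 1.05, 9.23e-05 and 3.41e-05). BIRC3 was at 0.75 with the Combination (adjusted p = 0.000373; corrected 0.50, 0.0148). Mean BIRC3 was 44.7 CPM in Control, 55.1 in Palbociclib, 49.1 in Telaglenestat and 75.1 in Combination tumors.

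Among 8 caspases and nucleases, 1 was higher and 1 lower with Palbociclib, 2 higher with Telaglenestat, and 3 higher and 1 lower with the Combination (medians -0.015, 0.14 and 0.062). Corrected, 1 was higher and 1 lower with Palbociclib, 1 lower with Telaglenestat, and 1 higher and 1 lower with the Combination. DFFA, which holds the apoptotic nuclease in check, was higher with Palbociclib by 0.40 (adjusted p = 0.000961) and with the Combination by 0.45 (adjusted p = 4.87e-05), and by 0.39 and 0.42 corrected (adjusted p = 0.000676 and 0.000182). Of 10 genes of mitochondrial permeability and the apoptosome, 1 was lower with Palbociclib, 4 were higher and 2 lower with Telaglenestat, and 3 higher and 2 lower with the Combination (medians 0.012, 0.0015 and 0.03), but corrected 0, 0 and 1 higher and 1 lower. APAF1, the scaffold of the apoptosome, was that gene with Palbociclib, at -0.34 (adjusted p = 0.0424; corrected -0.29, 0.0575), and with the Combination it was at -0.28 (adjusted p = 0.0342; corrected -0.46, 0.00123).

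In the death receptor pathway, 1 of 9 genes was higher with Palbociclib, 2 higher and 5 lower with Telaglenestat and 2 higher and 2 lower with the Combination (medians 0.085, -0.24 and -0.17), against 0, 0 and 2 higher and 1 lower corrected. CFLAR, which encodes the caspase-8 inhibitor FLIP, was at 0.50 with the Combination (adjusted p = 0.000106; corrected 0.40, 0.00289). Mean CFLAR was 48.3 CPM in Control, 59.1 in Palbociclib, 60.7 in Telaglenestat and 68.5 in Combination tumors. Of 10 transcription factors upstream of the family, 0 passed with Palbociclib, 2 were higher and 5 lower with Telaglenestat, and 1 higher and 4 lower with the Combination (medians -0.023, -0.28 and -0.21). Corrected, 0 passed with Palbociclib, 1 was higher with Telaglenestat, and 2 were higher and 2 lower with the Combination. E2F1 was lower with the Combination at -1.71 (adjusted p = 5.56e-06; corrected -0.63, 0.035). Mean E2F1 was 15.3 CPM in Control, 10.8 in Palbociclib, 5.73 in Telaglenestat and 4.68 in Combination tumors. Of 14 genes that act on the members after translation, 0 passed with Palbociclib, and 7 were higher with Telaglenestat and with the Combination, against 2 and 3 lower (medians -0.031, 0.13 and 0.16). Corrected, 0 passed with Palbociclib, 2 were higher and 1 lower with Telaglenestat, and 3 higher and 2 lower with the Combination. AKT1, the kinase that phosphorylates BAD, was at -1.66 with Telaglenestat (adjusted p = 3.03e-08; corrected -0.54, 0.000272). Mean AKT1 was 88.9 CPM in Control, 85.1 in Palbociclib, 28.1 in Telaglenestat and 36.2 in Combination tumors.

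Over all 28 libraries, with tumors and cultures centred separately, the genes whose log2 CPM tracked a member most closely mostly came from outside the family. The gene closest to BAX was DNPEP (Pearson r = 0.963), followed by RPS9 (0.962) and BSG (0.962). For MCL1 it was RAB10 (0.951), for BCL2L1 ERGIC1 (0.950), for BAK1 SLC52A2 (0.934), for BAD MLST8 (0.913) and for BBC3 RP11-59C5.3 (0.820). PMAIP1 was closest to EBPL (0.836), BCL2L11 to SLC5A3 (0.851), BID to PDCD5 (0.815) and BCL2L2 to MAMDC4 (0.643). After correction the closest were EHBP1L1 for BCL2L2 (0.940), HS3ST1 for PMAIP1 (0.868), EPHA1 for BAX (0.843), PTPRK for BCL2L1 (0.841) and CYCS, which encodes cytochrome c, for BID (0.841). For the rest they were GALNT5 for BAK1 (0.833), MIR1244-3 for MCL1 (0.791, tied with MIR1244-4 and MIR1244-2) and SLC5A3 for BCL2L11 (0.697). BBC3 had RP11-59C5.3 (0.679) and BAD had FAM98C (0.652). The points share depth, groups and, before correction, the GC trend of each library, and the values describe these libraries only.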

How the data were processed

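RNA was measured in 28 HCT116 libraries, 16 of xenograft tumors and 12 of cultures, grouped by the labels. The authors purified poly(A) RNA, marked the second strand with uracil, sequenced single-end reads, made FASTQ files with CASAVA 1.8, aligned them with STAR to an Ensembl genome (hg38 in the submitters' processing notes) and deposited the counts per gene as whole numbers without normalization. The annotation release, the STAR version and the strand used in counting are not given in the sources used here. Of 58278 gene IDs, 57940 matched GENCODE release 29 on GRCh38, which gave coordinates, lengths and GC content; unmatched genes held 0.0287% of counts. Promoter windows came from RefSeq on GRCh38.p14, with 14 windows for 8 of 10 members, and MCL1 and BCL2L2 were not among them.

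Tumors (14848 genes tested) and cultures (13985) each had a fit of their own in edgeR 4.0.16 (R 4.3.3), as 4 group means, and all 28 libraries were fitted together (15466) for contrasts between systems. Genes with low counts were removed by filterByExpr (minimum count 10), libraries were scaled by TMM, and quasi-likelihood tests were adjusted by Benjamini-Hochberg over all genes tested, with a threshold of 0.05. CPM were computed on the scaled library sizes, log2 CPM with a prior count of 2. The corrected fits took as offsets each library's natural spline (4 degrees of freedom) on GC content and on log2 length. It was fitted by robust regression (MASS 7.3.60.0.1) to deviations from each gene's mean log2 CPM. DESeq2 1.42.0, other filters, scalings, sample sets, a block on replicate number and leaving out each library were alternatives, and those corrected with a library left out were added after the data had been seen. The scripts were tested on simulated data. No measured column was left out, depth limits genes with few counts, and replicates are separate tumors or cultures as labelled. The members and gene lists were chosen with earlier results of these data known; all 10 members are named, and of each other list up to 3 genes with the smallest adjusted p in tumors. One further gene is not reported here.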

Additional observations from a re-analysis of the deposited data

Results flagged for a closer look

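Among 30 groups of 4 or 5 tumors, 7 held a value far from the rest by Dixon's test, which chance gives in about 1 of 20 groups. BAD was at 2.50 CPM in Palbociclib replicate 2, where the others held 6.05 to 7.41, and at 2.53 CPM in Telaglenestat replicate 4, against 1.52 to 1.67. BID was at 41.6 CPM in Combination replicate 3 (others 36.5 to 37.3), and BCL2L2 at 74.9 CPM in Palbociclib replicate 4 (58.5 to 63.1). In Telaglenestat tumors, replicate 2 held 125 CPM of PMAIP1 (104 to 108) and 48.2 of BCL2L11 (52.1 to 52.2), and replicate 1 held 122 of BCL2L1 (103 to 105).

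The difference between Telaglenestat and Control was not the same in tumors as in the drug-free cultures, by edgeR's interaction test, for BAX (-2.36 on the log2 scale, adjusted p = 0.000133), BAD (-2.002, 0.00559), BAK1 (-1.05, 0.00392), BCL2L1 (-0.82, 0.00412), BCL2L11 (0.52, 0.0297) and MCL1 (0.46, 0.00349). That of the Combination was unequal for PMAIP1 (0.73, adjusted p = 0.0411). After correction for GC content and length, that of BAX was -1.04 and passed (adjusted p = 0.019), and the other values here did not pass.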

How the results depend on the processing

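Of the 36 called values of members, 35 kept their direction and call with DESeq2 and 34 with DESeq2's size factors in edgeR. When corrected for GC content and length, 11 did so, and 8 changed sign, with or without a call. Of 775 values uncalled both ways under these alternatives, 64 changed sign, 46 of them when corrected. Of those to which the alternative applied, 20 of 20 held with at least 10 counts in every library, 25 of 26 with the compared groups only, 24 of 26 without a filter and 22 of 26 in one fit of all 28 libraries. Few counts limit BAD and BBC3.

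The number of members called with Palbociclib against Control was 2 instead of 1 with DESeq2, its size factors, the correction, no filter or the strict filter. With the correction it was 2 instead of 6 for Telaglenestat and 5 instead of 8 for the Combination against Control, 3 instead of 7 for the Combination against Palbociclib, 2 instead of 6 for the Telaglenestat difference of tumors less that of cultures and 0 instead of 1 for that of the Combination, which was also 0 with DESeq2's size factors. The strict filter gave 4 and 5 for Telaglenestat against Control and the Combination against Palbociclib, since fewer members were then tested. The correction changed the sign of BAD (0.19) and BBC3 (0.35) with Telaglenestat, and of BCL2L1 (0.34) and BAK1 (0.30) with the Combination against Control. It also did so for BCL2L1 (0.035) and BAK1 (0.093) with the Combination against Palbociclib, and for BCL2L2 between Control tumors and cultures (-0.13). The last was the BAK1 difference with Telaglenestat in tumors less cultures (0.081). Of these, only BCL2L1 with the Combination against Control passed after correction. Uncalled before and called with the opposite sign when corrected were BCL2L2 with Telaglenestat (0.56), with the Combination against Control (0.38) and against Palbociclib (0.48) and in the Telaglenestat difference of tumors less cultures (0.65), and BAK1 between Control tumors and cultures (-0.42). The cause was not tested.

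Leaving out each library in turn gave 1 to 2 called members for Palbociclib, 6 to 7 for Telaglenestat and 7 to 9 for the Combination against Control, 6 to 7 and 4 to 4 for the Combination against Palbociclib and Telaglenestat, 0 to 0 for the cultures and for the response beyond the sum, 2 to 3 for Control tumors against cultures, and 0, 5 to 6 and 0 to 1 for the differences from Control of Palbociclib, Telaglenestat and the Combination in tumors less cultures. Corrected, these were 1 to 2, 2 to 3, 4 to 6, 2 to 3 and 2 to 4 for the tumor comparisons and 0 to 0 for the cultures. Corrected log2 differences with a library left out spanned 0.24 to 0.40 for BCL2L1, 0.24 to 0.40 for BAK1 and -0.17 to 0.11 for BAD in the Combination against Control; -0.06 to 0.09 for BCL2L1, 0.03 to 0.15 for BAK1 and -0.05 to 0.14 for PMAIP1 in the Combination against Palbociclib; and -0.02 to 0.34 for BAD, -0.10 to 0.06 for BAK1 and 0.18 to 0.45 for BBC3 with Telaglenestat.

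Tumors with the same replicate number did not deviate together (r -0.128 to 0.0896 over 21 pairs, 0 above 0.1). Nor did most cultures (3 of 18 pairs above 0.1, and 8 of 36 pairs with unlike numbers). No sign of pairing by number was thus seen, and shared handling by number was not tested. With a replicate block 31 of 36 called values held: 0 instead of 3 members were called for Control tumors against cultures and 0 instead of 1 for the Combination difference of tumors less cultures. The replicate block with the correction gave 1, 2 and 5 called members for Palbociclib, Telaglenestat and the Combination, each less Control. For both drugs less Palbociclib it gave 3, and 9 of 26 values held. BAD (0.077), BBC3 (0.33), BCL2L1 (0.33 against Control, 0.028 against Palbociclib), BAK1 (0.31 and 0.064) and BCL2L2 (0.55 with Telaglenestat, 0.37 with the Combination, 0.44 against Palbociclib) changed sign as above.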
